A study of Mus musculus with 4 samples.

Results

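The 8 genes Emx1, Emx2, Lhx2, Lef1, Tbr1, Neurod2, Neurod6 and Zbtb20 encode transcription factors of the pallium, the dorsal part of the forebrain that gives rise to the neocortex and the hippocampus. They were chosen by name, and their CTCF peaks by position: a peak belonged to a gene when its summit lay in the gene body or within 20 kb of it. By this rule 65 of 90278 summits on chromosomes 1 to 19 and X were at the 8 genes. All 8 had at least 1, against 85.8% of 21755 protein-coding genes. The sites came from ChIP-seq, sequencing of DNA recovered with an antibody to CTCF, on the hippocampus of adult male B6CASTF1/J mice aged 2 months. This strain is a hybrid whose parents are C57BL/6J and CAST/EiJ. There were 2 biological replicates, each a pool of 7 biosamples sequenced as 2 technical libraries, which makes 4 libraries. The labels list the same donor for both pools and do not say whether different animals went into each, so the spread between replicates may be technical. All libraries belonged to a single untreated group, so the peaks were described and no groups were compared. Each peak has a signal, a unitless score deposited by the authors, and 1 further signal from each replicate. The main list held peaks with an irreproducible discovery rate (IDR) of at most 0.05 between the replicates. Read depth is unknown, gene activity was not measured, and tissue was not separated into cell types.

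CTCF is a zinc-finger protein that binds DNA through an asymmetric motif. Together with cohesin it anchors chromatin loops, most often between a pair of sites whose motifs point towards each other. In the embryonic pallium Emx1, Emx2 and Lhx2 set regional identity, and the cortical hem at its edge releases Wnt proteins that induce the hippocampus. LEF1 carries the Wnt signal to the genome. TBR1, NEUROD2 and NEUROD6 act in newborn glutamatergic neurons, and ZBTB20 is required for hippocampal pyramidal neuron identity.

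The motif at the strongest matching peak of each gene is shown first, as the reference for the sites described below. A match to the core CTCF motif, 12 bases long, could lie on either strand within 50 bp of the summit and differ at 1 base at most. Each line gives 40 bases read 5′ to 3′ along the motif from the C57BL/6J reference (GRCm38, mm10, RefSeq), with the core in capitals. The coordinates are those of the capitals, and the sign is the strand. The CAST/EiJ allele was not read.
Emx1, chr6:85222219-85222230, minus, signal 281: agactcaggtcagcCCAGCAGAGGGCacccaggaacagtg
Emx2, chr19:59461651-59461662, minus, signal 135: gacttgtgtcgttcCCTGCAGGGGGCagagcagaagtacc
Lhx2, chr2:38376152-38376163, minus, signal 869.9: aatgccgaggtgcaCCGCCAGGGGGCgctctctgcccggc
Lef1, chr3:131215076-131215087, minus, signal 625: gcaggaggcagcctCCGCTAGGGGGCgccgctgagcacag
Tbr1, chr2:61815100-61815111, plus, signal 588: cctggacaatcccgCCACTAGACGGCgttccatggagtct
Neurod2, chr11:98342787-98342798, plus, signal 895: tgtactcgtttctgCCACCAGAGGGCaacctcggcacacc
Zbtb20, chr16:43540261-43540272, plus, signal 820.4: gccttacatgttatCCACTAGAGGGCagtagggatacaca
Neurod6 had no match. The Emx1, Neurod2 and Zbtb20 cores matched exactly and the other 4 had 1 mismatch.

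At 3 genes the strongest peak had no match at this limit: Emx2, Lef1 and Neurod6. Each of these windows held a site with 2 mismatches, shown in the same form. At this looser limit 72.3% of the summits at the 8 genes and 75.7% of all summits held a match.
Emx2, chr19:59454382-59454393, plus, signal 795: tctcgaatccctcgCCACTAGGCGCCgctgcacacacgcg
Lef1, chr3:131237941-131237952, minus, signal 699.6: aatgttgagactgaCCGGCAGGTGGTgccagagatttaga
Neurod6, chr6:55677031-55677042, minus, signal 399.8: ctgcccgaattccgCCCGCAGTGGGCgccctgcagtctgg

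**Figure D1:**
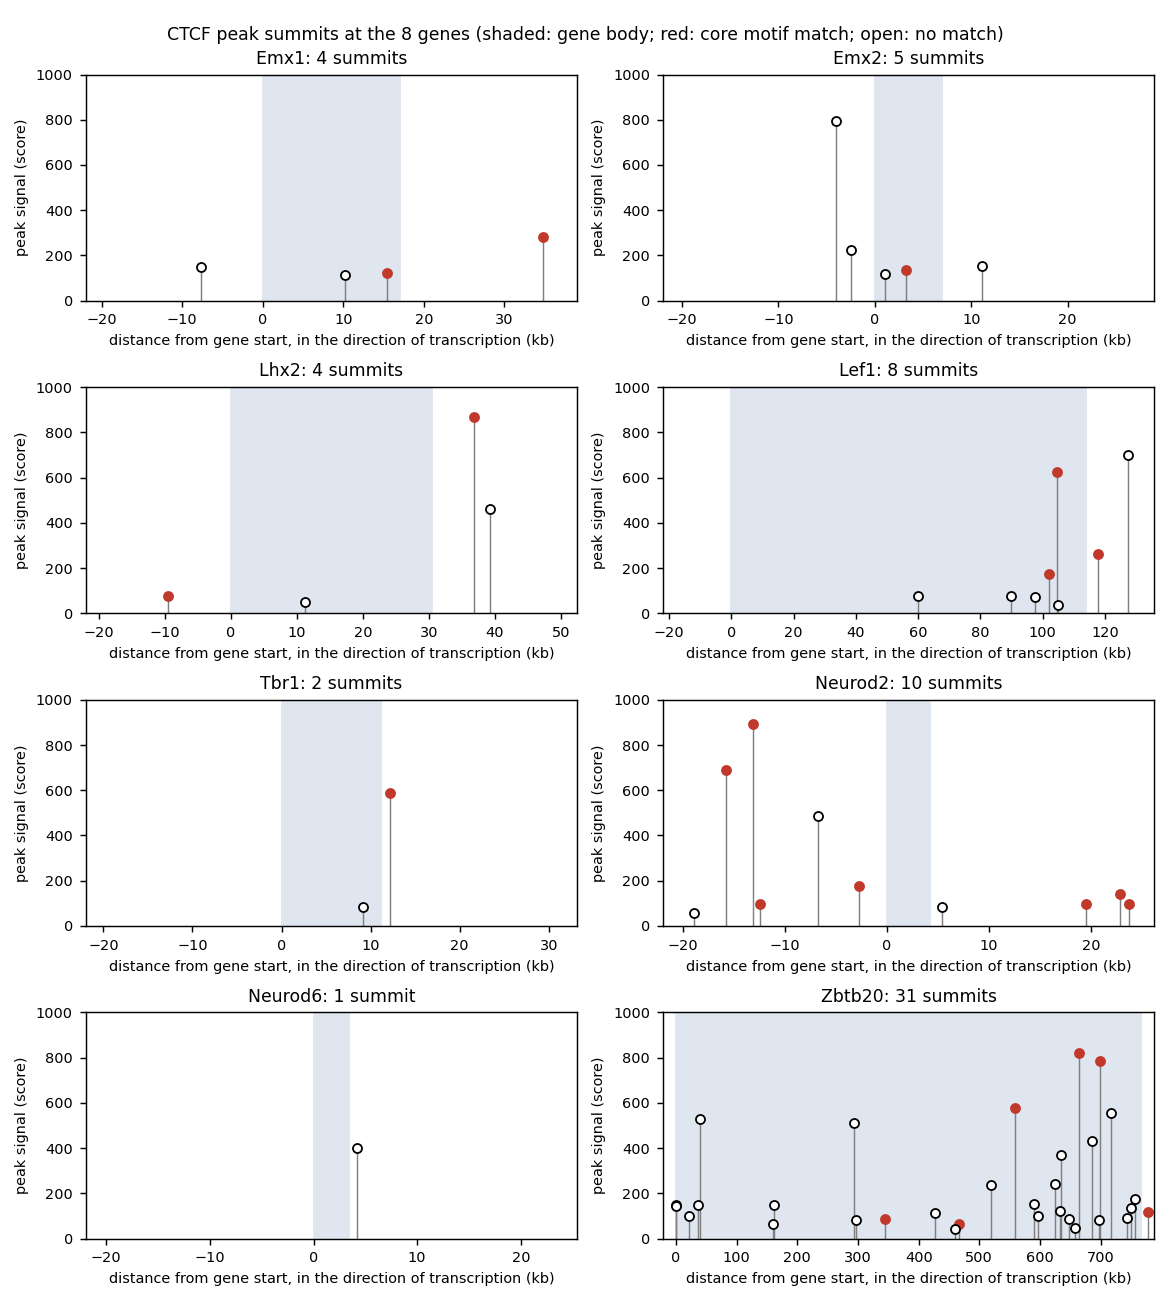
Peak signal (score) of every summit against its distance from the gene start in kb, in the direction of transcription, in 8 panels of 1 gene each. Shading marks the gene body, red points have a core motif match with at most 1 mismatch and open points have none. Neurod2 had 10 summits outside its body and none in it, and Zbtb20 had 29 of its 31 in the body.

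Emx1 and Emx2 are homeobox genes of the empty spiracles family, active in the dorsal telencephalon. Emx1 (ENSMUSG00000033726.8, chr6:85187438-85204462, plus strand) had 4 summits in its window, and each was weaker than the strongest summit of any other of the 8 genes. The strongest, with a signal of 281 and replicate signals of 130.2 and 149, lay 17764 bp past the gene end in an intron of Sfxn5. The summit 7688 bp upstream had a signal of 148 with 70.8 and 76.1 in replicates 1 and 2. The other summits lay in Emx1 introns, with signals of 115 (51.3 and 60.8) and 120.8 (58.2 and 62.0).

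Emx2 (ENSMUSG00000043969.4, chr19:59458372-59465357, plus strand) had 5 summits, and its strongest was upstream. That summit lay 3986 bp before the transcription start site (TSS), in an intron of Emx2os, the antisense transcript that starts beside Emx2. Its signal was 795, with 409.8 in replicate 1 and 388 in replicate 2, and 3.95% of all summits were stronger. A neighbour 2527 bp upstream, also in the Emx2os intron, had a signal of 223 (108 and 116). The summit in the coding exon lay 1002 bp from the TSS, just beyond the 1 kb limit used for promoters, with a signal of 117 and replicate signals of 70.1 and 47.5. It was 739 bp from an Emx2os TSS. The intronic summit had 135 (57.7 and 77.4) and the downstream summit 155 (78.8 and 78.1). The window of 101 bp around the strongest summit, chr19:59454336-59454436 on the plus strand, was rich in CG dinucleotides, which are in capitals here to show where they sit.
Emx2 strongest summit: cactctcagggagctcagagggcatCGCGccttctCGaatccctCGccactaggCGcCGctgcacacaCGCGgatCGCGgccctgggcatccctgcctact
It held 10 CG dinucleotides and 67.3% G and C, against medians of 1 and 49.5% over all summits.

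Lhx2, a LIM homeobox gene that keeps cortical progenitors from hem fate (ENSMUSG00000000247.11, chr2:38339281-38369733, plus strand), had 4 summits of very unequal signal, against 2 in the list of replicate 1 alone and 1 in the pooled-read list. The strongest lay 6424 bp past the gene end, with a signal of 869.9 and replicate signals of 423 and 450.1, and 0.51% of all summits were stronger. A second downstream summit 2356 bp further had 463, with 219.6 and 241. The remaining summits were weak: 77.7 (35.5 and 42.8) at 9553 bp upstream and 50.8 (24.8 and 27.9) within the gene. The last was the promoter summit of Lhx2, 229 bp from its second TSS, and 94.3% of all summits were stronger. It had no summit within 100 bp in the list of either replicate alone.

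Lef1, a high-mobility-group factor that pairs with beta-catenin (ENSMUSG00000027985.14, chr3:131110471-131224356, plus strand), had 8 summits, all far from its TSSs, against 5 in the list of replicate 1 alone. The nearest lay 57720 bp away, in an intron, with a signal of 75.3 (42.3 and 34.8). The strongest, 699.6 with 344 and 359 in the replicates, lay 13598 bp past the gene end in an intron of the neighbour Hadh. The second, 625 with 299 and 328, was in a Lef1 intron towards the 3′ end. Next came 260.3 (141 and 119), 3911 bp past the gene end, and 175 (78.3 and 93.4) in an intron. The weakest, 35.1 with 7.88 and 12.7, was a further summit within the peak of signal 625, so 7 separate peaks underlie the 8 summits. For 7 of the 8 the nearest protein-coding TSS was that of Hadh.

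Tbr1, a T-box gene of early-born cortical neurons (ENSMUSG00000035033.15, chr2:61802930-61814114, plus strand), had 2 summits, and 1 at an IDR of 0.01. The stronger lay 984 bp past the gene end, with a signal of 588 and replicate signals of 282 and 309. The other, in a coding exon, had 82.5 (46.2 and 35.1) and the highest G and C content of the 65 windows, 77.2% with 14 CG dinucleotides.

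Neurod2 and Neurod6 encode related basic helix-loop-helix activators of neuronal differentiation. With the 20 kb flank and the main list they had the densest and the sparsest window of the 8. Neurod2 (ENSMUSG00000038255.6, chr11:98325415-98329648, minus strand) had 10 summits, 6 upstream and 4 downstream. With the 20 kb flank this was 22.6 summits per 100 kb, more than at 98.8% of protein-coding genes. With a 10 kb flank 3 of the summits remained, or 12.4 per 100 kb, more than at 80.7%, and Emx2 was then denser, at 18.5. With a 50 kb flank there were 16, or 15.4 per 100 kb, more than at 94.98%. The strongest, 13128 bp upstream, had a signal of 895 with 429.8 and 471 in the replicates, and 0.179% of all summits were stronger. It stood 2670 bp from a summit of 687 (325 and 366). These sites matched the core motif exactly, on opposite strands and pointing towards each other, and the second is shown here to be read beside the first above.
Neurod2 second site, chr11:98345447-98345458, minus, signal 687: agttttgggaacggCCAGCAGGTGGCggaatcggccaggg
The third, 485 with 236 and 249, lay 6785 bp upstream without a match at up to 2 mismatches. The nearest to the TSS, at 2737 bp, had 177 (93.9 and 82.7), and a downstream summit had 143 (71.8 and 70.7). The weakest, 59.2 with 30.5 and 30.0, was in the 5′ untranslated region of the neighbour Ppp1r1b, 221 bp from that gene's TSS, and 4 of the 10 summits had Ppp1r1b as the nearest protein-coding gene.

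Neurod6 (ENSMUSG00000037984.9, chr6:55677822-55681263, minus strand) had a single summit, 772 bp past the gene end, with a signal of 399.8 and replicate signals of 191 and 211. Its density of 2.30 per 100 kb exceeded that at 24.0% of protein-coding genes. The list of replicate 1 alone held 2 summits in its window. The 101 bp around it, chr6:55677000-55677100 on the plus strand, are shown with CG dinucleotides in capitals because, like the Emx2 site, it combined a strong peak with no close motif match.
Neurod6 summit: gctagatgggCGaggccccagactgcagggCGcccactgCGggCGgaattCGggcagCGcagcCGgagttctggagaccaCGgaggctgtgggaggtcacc
It held 8 CG dinucleotides and 70.3% G and C. These 2 windows are examples: over the summits at the 8 genes the median was 1 CG dinucleotide both with and without a core match. The Lhx2 summit of 869.9, which had a match, held 7 and 68.3% G and C.

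Zbtb20, a zinc-finger repressor (ENSMUSG00000022708.16, chr16:42875881-43642602, plus strand), spans 766722 bp and had 31 summits, more than 99.7% of protein-coding genes. Per length the count was less extreme: 3.84 per 100 kb, above 33.4% of protein-coding genes but higher than the median of 2.33 over the 230 genes of 500 kb or more. Its strongest summits were all intronic. They had signals of 820.4 (391 and 437), 786 (385 and 405), 578 (284 and 294), 554 (267 and 284) and 527 (266 and 262). The first 3 matched the core motif, 2 of them exactly. The weakest had 41.1, with 20.5 and 22.8. In the 3′ part of the gene, 3 summits lay in 3′ untranslated exons, with signals from 89.2 to 173.

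Zbtb20 had 2 summits within 1 kb of a TSS of the GENCODE basic annotation. They lay 115 bp and 426 bp from separate internal TSSs, with signals of 119.9 (49.5 and 71.3) and 368 (167 and 201). The peak at the first, chr16:43508086-43508223 on the plus strand, is shown with the 21 bases around its summit in capitals, as the peak nearest to a TSS among the 8 genes.
Zbtb20 promoter peak: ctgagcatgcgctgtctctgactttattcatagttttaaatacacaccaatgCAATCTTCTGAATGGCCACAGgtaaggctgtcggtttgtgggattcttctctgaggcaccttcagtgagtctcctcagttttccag
No core match with at most 1 mismatch was within 50 bp of either summit. A further pair, with signals of 149.9 and 142, lay 751 bp and 552 bp from the start of the gene, which is a TSS of the comprehensive annotation but not of the basic one.

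With these, 2 of the 8 genes, Lhx2 and Zbtb20, had a promoter summit (share with a 95% exact binomial interval of 3.19% to 65.1%), against 38.0% of protein-coding genes. The interval holds the share of all genes, so 8 genes do not show a difference. Emx2 was at the edge: it was counted in place of Lhx2 in the list of either replicate alone, and in addition to both genes with the comprehensive annotation, where a TSS lies 145 bp from its exonic summit.

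Across the 65 summits, 41 were in the gene bodies, 11 upstream and 13 downstream. By annotation 41 lay in introns, 17 between genes, 3 in coding exons, 3 in 3′ and 1 in 5′ untranslated regions. The strongest summit was outside the gene body at 7 of the 8 genes, with Zbtb20 as the exception. The share over all protein-coding genes is not given here. At most of the 8 genes the flanks of 20 kb on each side were together longer than the body. The median density over the 8 genes was 5.44 summits per 100 kb, against 6.14 over all protein-coding genes.

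**Figure D2:**
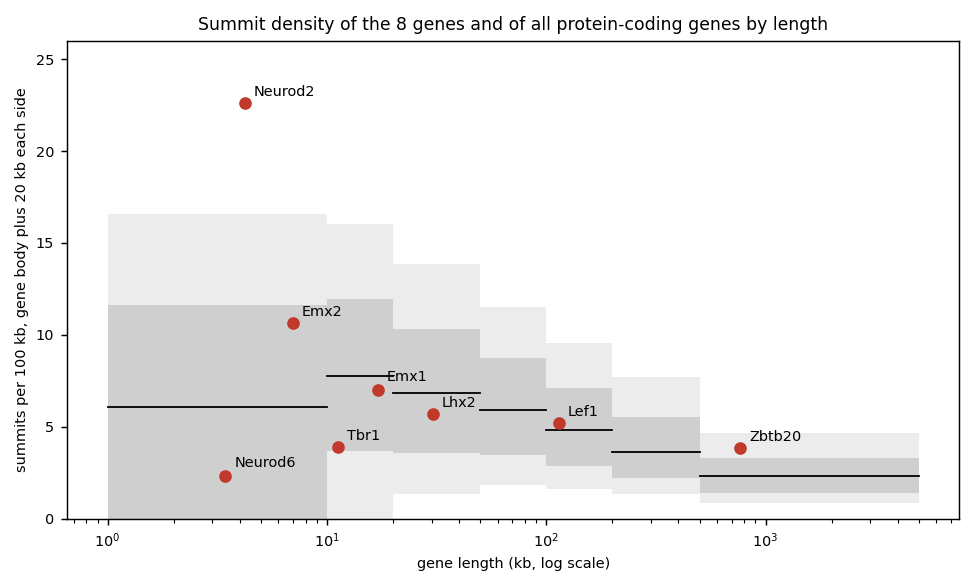
Summits per 100 kb of gene body plus 20 kb on each side against gene length in kb (log axis). Points are the 8 genes; the bands give the 10th to 90th and 25th to 75th percentiles of protein-coding genes of like length and the black lines their medians. Neurod2, at 22.6, lay above the 90th percentile of genes under 10 kb, 16.6, and the other 7 genes lay between the 10th and 90th percentiles of their length class.

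The genes could be ordered by their strongest peak: Neurod2, Lhx2, Zbtb20, Emx2, Lef1, Tbr1, Neurod6 and Emx1, from 895 down to 281. Over the 18663 protein-coding genes with a summit, the median of the strongest was 702, which only the first 4 exceeded. With genes without a summit counted as lower, these 4 exceeded 98.8%, 96.9%, 86.9% and 79.6% of protein-coding genes. In replicate 1 and in replicate 2 each neighbouring pair kept this order, except Zbtb20 and Emx2, where replicate 1 had 391 and 409.8 and replicate 2 had 437 and 388. The ranges of the replicates overlapped between neighbours among the first 4 genes and did not from Emx2 to Emx1. With 2 replicates no test of these differences was made, and the order is a description.

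Replicate signals of the 65 peaks were close, but the IDR threshold had selected every peak of the list for agreement between the replicates. The log2 ratio of replicate 2 over replicate 1, less the median of all peaks, had a median of 0.01 and a standard deviation (SD) of 0.25. Over all peaks of the list the SD was 0.41. Measured from 0, the ratio lay beyond 2 SD of all peaks of like signal for 2 of 65 peaks, or 3.08%, against 3.99% of all peaks. These were the strongest Emx2 summit, at -0.17, and a Zbtb20 summit in a 3′ untranslated exon, at -0.49, both lower in replicate 2. Of the 65 summits, 51 had a summit within 100 bp in the list of replicate 1 alone (78.5%, against 79.0% of all summits), 55 in that of replicate 2 (84.6%, against 79.5%) and 50 in the pooled-read list (76.9%, against 77.0%). The lists share reads.

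Among the absences from the pooled-read list were 3 of the strongest summits: Neurod2 at 895, Lhx2 at 869.9 and Zbtb20 at 786. All 3 were in the lists of both replicates. Over all summits, 85.1% of those in the strongest signal decile were in the pooled-read list, against 100% in the decile from 372 to 559 and 13.4% in the weakest. The Emx2 summit of 795 and the Zbtb20 summit of 820.4 were in it.

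**Figure D3:**
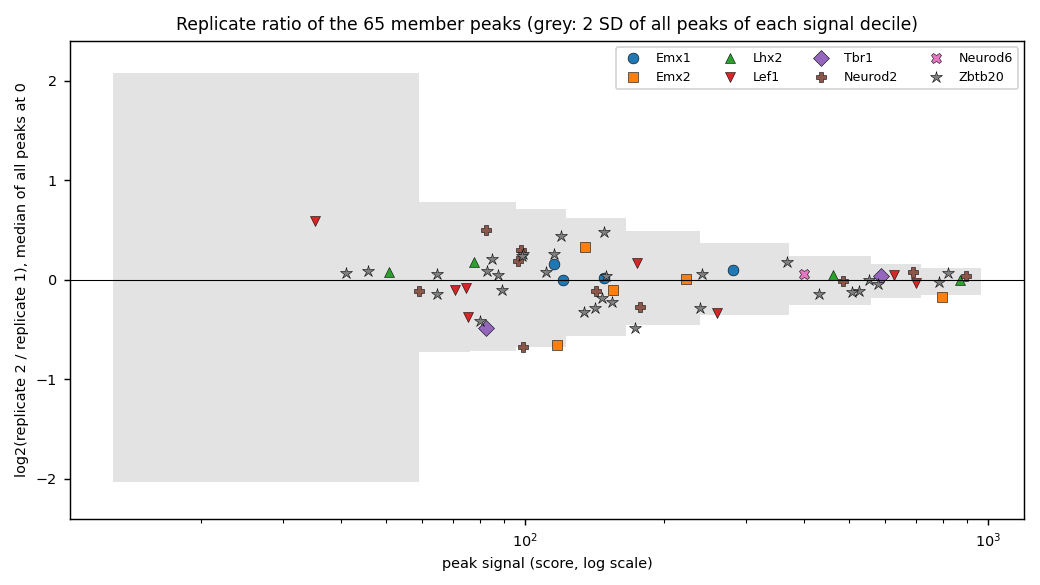
Log2 ratio of replicate 2 over replicate 1, with the median of all peaks at 0, against peak signal (log axis) for the 65 peaks, by gene. Grey bands are 2 SD of all peaks on either side of the median of each signal decile. The 2 peaks beyond 2 SD of 0, of Emx2 and Zbtb20, lie outside them. So does a Neurod2 peak of signal 98.9, at -0.674, just past the edge of its band.

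The list is a cut through a longer ranking. In the same windows the between-replicate ranked list held 174 candidates, of which 65 passed the IDR threshold, or 37.4%, against 44.3% of all 203931 candidates. The 109 that did not pass were weak at every gene: their highest signal was 71.9, at Zbtb20, and their medians ran from 16.9 at Tbr1 to 26.2 at Lef1. The weakest that passed had 35.1, so signals overlapped at the threshold. The windows of Emx1, Tbr1 and Neurod6 held 7, 7 and 5 candidates that did not pass, beside 4, 2 and 1 that did.

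The core motif with at most 1 mismatch was within 50 bp of 22 of the 65 summits, or 33.8% (95% exact binomial interval 22.6% to 46.6%), against 50.3% of all summits, which lies above that interval. In windows 1 kb away it was at 0 of 65 and at 1.25% over all summits. Exact matches were at 10.8% of the summits at the 8 genes and 10.02% of all. By the core search the share was also lower within ranges of signal: 8 of 18 summits with a signal of 300 or more had a match (44.4%, 21.5% to 69.2%), against 64.5% of all such summits, and 6 of 23 under 100 (26.1%, 10.2% to 48.4%), against 37.6%. Both of these intervals hold the share of all summits. The intervals cover counting only and take summits as independent, although the 65 share 8 windows. Matches were unevenly spread, with 7 of 10 summits at Neurod2, 6 of 31 at Zbtb20, 3 of 8 at Lef1, 2 of 4 at Emx1, 2 of 4 at Lhx2, 1 of 5 at Emx2, 1 of 2 at Tbr1 and 0 of 1 at Neurod6. Zbtb20, with 31 of the 65 summits, therefore weighs most in the lower share, which did not hold at each gene. The share at Neurod2 was above that of all summits, and at Emx1, Lhx2 and Tbr1 it was near it. Emx2, Lef1 and Neurod6 were below it, with 5, 8 and 1 summits. Without a match the median signal was 134, and with one it was 176, against 126 and 238 over all summits.

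**Figure D4:**
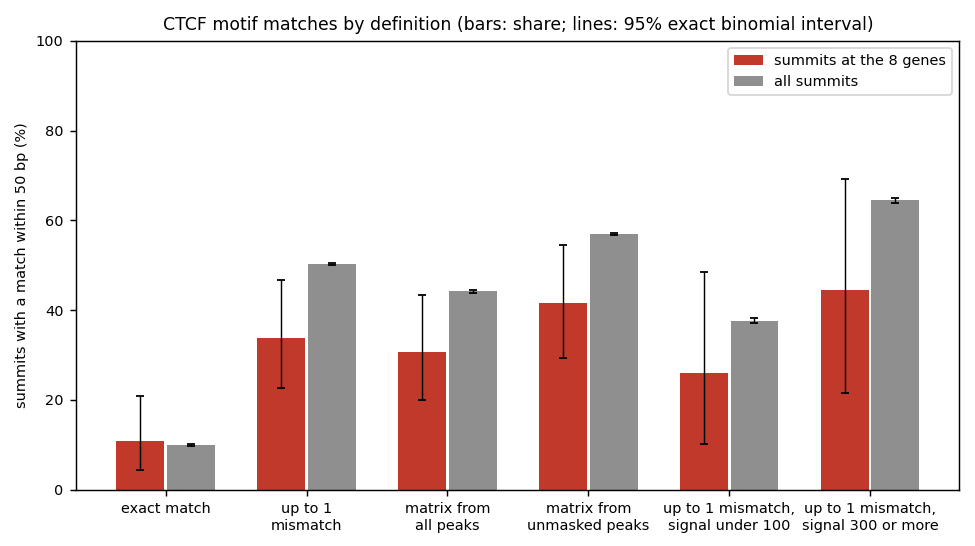
Share of summits with a CTCF motif match within 50 bp (%), at the 8 genes (red) and over all summits (grey), under 4 definitions and, for up to 1 mismatch, at low and high signal. Both matrices were trained on summits with a core match, so the definitions are not independent. Lines are 95% exact binomial intervals; the share at the 8 genes was the lower except for exact matches, 10.8% against 10.02%.

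Repeats were also less common at these summits. Soft-masked sequence, which the reference marks as repetitive or of low complexity, filled 50% or more of the 101 bp window at 9 of 65 summits, or 13.8%, against 27.4% of all summits. The 95% exact binomial interval was 6.53% to 24.7%, with summits taken as independent. The genes differed: Zbtb20 had 2 such summits of 31 and Neurod2 3 of 10, so the lower share did not hold at each gene. Among summits not soft-masked to this extent, 16 of 56 at the 8 genes had a core match (28.6%, 17.3% to 42.2%), against 41.3% of all such summits. Among those that were, 6 of 9 had a core match (66.7%, 29.9% to 92.5%), against 74.0%. Both intervals hold the share of all summits of the same kind. In rodents, short interspersed elements of the B2 family are known to carry CTCF motifs. The repeat class was not annotated in the sources used here. Several masked sites at the 8 genes resembled the upstream Lhx2 site to differing degrees, as their sequences show. They were compared with that site and not with each other.
Lhx2 upstream, signal 77.7: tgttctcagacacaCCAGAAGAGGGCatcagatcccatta
Neurod2 downstream, signal 96.4: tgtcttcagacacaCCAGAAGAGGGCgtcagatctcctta
Neurod2 upstream, signal 177: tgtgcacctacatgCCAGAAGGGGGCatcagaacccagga
Zbtb20 intron, signal 98.6: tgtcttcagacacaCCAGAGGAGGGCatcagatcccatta
Of 40 bases, the Neurod2 sites shared 35 and 30 with the Lhx2 site and the Zbtb20 site shared 37. The Zbtb20 site had 2 or more mismatches to the core and was found by a weight matrix. A limit of 30 shared bases, set after these sequences were seen, took 3 of the 22 core matches at the 8 genes, or 13.6%, against 22.9% of 45381 core matches over all summits. These 3 include the Lhx2 site itself, which passes by construction, and the upstream Neurod2 site, which sits at the limit. The shares therefore do not show a difference. Sites with 30 or more shared bases were weak in the whole list: their median signal was 93.4, against 379 for the other matches.

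A weight matrix trained on summits away from the 8 genes that had a core match found a site at 20 of 65 summits, or 30.8%, against 44.2% of all. Being derived from the core search, it is not an independent definition. Among signals under 100 its share was the higher at the 8 genes, 9 of 23 or 39.1% against 36.1%. A matrix trained after the data were seen, on the subset of those training summits without soft-masked bases, found 27 of 65, or 41.5% (29.4% to 54.4%), against 57.0%. Among the 18 summits with a signal of 300 or more it found all 8 that the core search had found and added the Lef1 summit of 699.6, the Zbtb20 summit of 527 and the second Lhx2 summit downstream, at 463. The other 7 had no site by it: Emx2 at 795, Neurod2 at 485, Neurod6 at 399.8 and Zbtb20 at 554, 509.7, 433 and 368. The second Lhx2 site and the Zbtb20 site show what the core search missed, with the core position in capitals.
Lhx2 second site, signal 463: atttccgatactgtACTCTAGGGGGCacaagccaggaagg
Zbtb20 intron, signal 527: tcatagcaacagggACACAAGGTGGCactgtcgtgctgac

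The 22 core matches were each on a single strand, 8 plus and 14 minus. Within windows, neighbouring motifs formed 15 pairs: 5 pointed towards each other, 6 away and 4 the same way, against 23.7%, 24.5% and 51.8% over all pairs of neighbouring matches. Of these 15 pairs, 6 were at Neurod2, where the 7 motifs alternated in strand along the window, starting and ending on minus. Zbtb20 gave 5 pairs and Lef1 2. Taking instead the nearest motif on each side of the gene body, the pair pointed the same way at 6 genes, towards each other at Emx1 and away at Neurod2. Over protein-coding genes the pairs pointed the same way at 48.9%, towards each other at 26.3% and away at 24.8%. At Emx1 the sites lay 27041 bp before the gene, with a signal of 773, and 17764 bp past it, with 281. Loops were not measured.

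Related genes were taken from 6 lists and are given by the same promoter rule, beside 38.0% of all protein-coding genes. Of 30 other pallial and hem patterning genes 11 had a promoter summit, or 36.7%, and their median density was 5.49 per 100 kb. The strongest were at Cux2, an upper-layer homeobox gene, with 810.1 (405 and 408), Bcl11b, a factor of deep-layer projection neurons, with 509 (254 and 251), and Cux1 with 426 (208 and 218). Dmrt3 was among those with none. The Emx2os promoter summit is the exonic summit of Emx2.

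Of 5 Tcf family and Wnt response genes 3 had a promoter summit, while their relative Lef1 had none. Tcf7l1 had 858 (412 and 452), Tcf7l2 508 (240.3 and 268) and Axin2, a feedback inhibitor of Wnt signalling, 125 (61.7 and 66.3), and Ctnnb1 and Tcf7 had none. Among 10 proneural and NeuroD family genes only Bhlhe22 had one, at 77.7 (43.7 and 34.9), and Atoh1 and Bhlhe23 were without, as were Neurod2 and Neurod6 themselves. Of 11 LIM homeobox genes 2 had one, Lhx1 at 80.0 (32.2 and 47.9) and Lhx9 at 78.8 (32.5 and 48.0), both under 100 as was that of Lhx2, and Isl1 and Isl2 had none.

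Of 9 T-box genes 3 had a promoter summit, unlike Tbr1: Tbx3 at 542 (262 and 283), Eomes, the intermediate progenitor gene, at 339 (166 and 174) and Tbx1 at 267 (120.5 and 147). T and Tbx2 had none. Of 10 subpallial patterning genes, which act in the ventral forebrain, Olig2 alone had one, at 354 (172 and 180.0), and Dlx1 had none. The lists overlap in Eomes, Lhx5, Lhx9 and Lmx1a, and no test of a list was made.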

How the data were processed

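CTCF ChIP-seq peaks were analysed from 4 libraries in 2 biological replicates of adult mouse hippocampus. Per the labels, reads of both technical libraries of a replicate were aligned together to mm10, which leaves values per replicate and not per library. Which aligner, peak caller and control were used is not given in the sources used for the values below. The peak signal and the IDR score are scores as the authors deposited them. The signal's scale is not stated, so it served to describe and rank peaks within a list. The authors deposited the IDR and q-value of each peak as -log10 values. Replicate signals came from the between-replicate ranked list: 78.1% of its first input peaks matched the ranked list of replicate 1, 80.0% of the second matched that of replicate 2, and no match crossed over.

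The between-replicate list at an IDR of 0.05 was the main list. Genes came from GENCODE M21, TSSs from its basic set, and sequences from the RefSeq copy of GRCm38, by symbol for all 8 genes. Coordinates are 1-based. Peaks were named by rule: every summit of a gene with 6 or fewer; otherwise the 5 strongest, the nearest to a TSS and the weakest; of each related list the 3 strongest promoter peaks and up to 2 members without. A few names given by this rule are left out here. Further peaks and the sequences set beside the upstream Lhx2 site were chosen after their values were seen. The members and lists were chosen with earlier results of these data known. The weight matrix had 19 positions, with its threshold at the 99th percentile of windows 1 kb away. Intervals are Clopper-Pearson (exact) at 95% and reflect counting alone. On simulated sequence the motif search found 100% of 500 planted sites with 1 mismatch and called 0.4% of 500 sequences with none. This checks the code alone, because the planted sites met the search rule and the 4 bases were drawn evenly. Tables were made with pandas 2.3.3 and numpy 2.4.6 in Python 3.11.15, intervals with scipy 1.17.1 and plots with matplotlib 3.10.9.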

Additional observations from a re-analysis of the deposited data

How the results depend on the processing

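Of 35 alternative settings of the main counts and shares, 29 kept them within the limits of the comparison and 6 moved them. These limits were wide. Counts of 51 and 94 summits in place of 65 were taken as kept, and so was a motif share of 25.5% in place of 33.8%. The 29 are therefore no measure of how stable the values were. The 65 summits became 41 with the gene body alone and ranged from 51 to 94 under the others, including 54 and 58 with either replicate alone. Genes with a promoter summit became 1 at an IDR of 0.01, 1 in the pooled-read list (Zbtb20 in both) and 5 with a limit of 5 kb. They were 2 in the list of either replicate alone, where Emx2 took the place of Lhx2. With the comprehensive annotation, an alternative chosen after seeing the data, they were 3. The share of summits with a motif became 10.8% for exact matches and 72.3% with up to 2 mismatches, and was 34.5% and 37.0% with either replicate left out. Under the other alternatives it ran from 25.5% with a 10 kb flank to 41.5% with the matrix from unmasked summits. Counts per gene were less stable: 16 of 72 alternatives moved them. Between the gene body alone and a 50 kb flank, Neurod2 ran from 0 to 16, Emx1 from 2 to 15, Emx2 from 2 to 8 and Neurod6 from 0 to 4. Without replicate 2, Lhx2 fell from 4 to 2 and Lef1 from 8 to 5, and Neurod6 went from 1 to 2. The gene body alone gave Lhx2 1 and Tbr1 1, the pooled-read list gave Lhx2 1, and an IDR of 0.01 gave Tbr1 1. No paired analysis was possible because all libraries belong to 1 group and no test between groups was made. Read depth is unknown, so the precision of a single peak's signal could not be derived. Motifs were read from the C57BL/6J reference alone.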
